A study of Mus musculus with 12 samples.

Results

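Nuclear-encoded genes of the mitochondrial respiratory chain and ATP synthase were followed in the liver of female mice with and without estrogen receptor alpha, on normal or high-fat diet. The members were all genes whose platform symbol begins with Nduf, Sdh followed by a to d, Uqcr, Cox4 to Cox8 or Atp5, and the brightest probe set by mean signal over all 12 arrays stood for each gene. There were 94 members among the 18194 genes measured. Of these, 89 were among the 12264 genes that passed a filter on low signals and were tested, namely 41 of 42 members of complex I, 8 of 8 of complex II, 8 of 8 of complex III, 15 of 19 of complex IV and 17 of 17 of ATP synthase. Assembly factors named by the same prefixes, such as Ndufaf1 and Sdhaf4, were counted with their complex, and Ndufa4 and Ndufa4l2 with complex IV. The 5 members that did not pass were Cox4i2, Cox7b2, Cox8b, Ndufa4l2 and Ndufb4.

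The samples were liver of adult females of the B6.129 background, and each sample was hybridised to 1 Affymetrix expression array. Wild-type (WT) females carried Esr1+/+ and αERKO females Esr1-/-, where Esr1 encodes estrogen receptor alpha. For 2 weeks each genotype received either the NIH-31 normal diet or a high-fat diet of 60 kcal% fat, which gives 4 groups of 3 samples: WT normal, WT high-fat, αERKO normal and αERKO high-fat. The knockout is labelled as Esr1-/- with no tissue named, no age beyond adult is given, and nothing in the labels says that replicates were taken from different animals. The p-values therefore refer to the scatter among the 3 samples within groups, pooled over the 4 groups and drawn towards an intensity trend. Part or all of that scatter may be technical.

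Complex I (NADH dehydrogenase) and complex II (succinate dehydrogenase) pass electrons to coenzyme Q, complex III passes them on to cytochrome c, and complex IV (cytochrome c oxidase) passes them to oxygen. Complexes I, III and IV pump protons across the inner mitochondrial membrane, and ATP synthase uses the proton gradient to make ATP. Most subunits are encoded in the nucleus, and in the liver the chain reoxidises the electron carriers reduced by fatty acid oxidation. Transcription of many of these genes is known to be served by the factors NRF1, GABP (an ETS factor), the estrogen-related receptors and YY1, with the coactivator PGC-1 alpha (Ppargc1a).

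Esr1 followed the genotype labels. In WT its signals were 2438, 3930 and 1963 on normal and 3212, 3676 and 3140 on high-fat diet, and in αERKO they were 681, 586 and 601 on normal and 885, 663 and 858 on high-fat diet. The αERKO arrays all lay below the WT arrays, with log2 differences of -2.07 ± 0.20 (SE) on normal and -2.05 ± 0.20 on high-fat diet. All 9 hepatocyte markers measured (of 10 listed) were above the array's median signal on every array, and their mean log2 level was 15.13 to 15.70. Transcripts of other tissues were present on some arrays. The 16 skeletal muscle markers had mean log2 levels of 10.37 on αERKO normal replicate 1, 8.59 on αERKO high-fat replicate 2, 7.03 on αERKO normal replicate 2 and 6.70 on WT normal replicate 3, against 5.45 to 5.99 on the other arrays. The 11 pancreatic acinar markers had 13.76 on WT normal replicate 2, 13.49 on αERKO normal replicate 1, 12.44 on WT high-fat replicate 3 and 9.94 on WT high-fat replicate 2, against 5.47 to 6.27 elsewhere.

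On high-fat diet most members had a higher level in αERKO than in WT liver, by small amounts, and 1 of them, Uqcr11, rose by a margin that passed the test. The log2 difference between αERKO and WT was above 0 for 75 of 89 members (84.3%), beside 45.6% of all genes tested. The members' median difference was 0.16, beside -0.033 over all genes. The members were bright, with a median log2 level of 13.27. In no comparison were all genes matched to them for signal level. Members on an array also share any offset of that array, so their number above 0 is not a count of independent results. A gene was called when its adjusted p from limma was under 0.05, and 1 member was called higher and 0 lower, where 1.98% of all genes were called (1.1% higher and 0.881% lower). One called member in 89 is near that background. At an unadjusted p under 0.05, 21 members were higher and 0 lower, where the background was 6.85% higher and 8.32% lower. The 3 αERKO high-fat arrays lay above the 3 WT high-fat arrays for 23 members and below them for 1, where 10% and 12.5% of all genes did so. In whole liver, fewer cells of a type and less RNA per cell cannot be told apart, so these levels are of the tissue.

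The same members showed smaller and less uniform genotype differences on normal diet. There the difference was above 0 for 51 of 89 (57.3%, beside 42.2% of all genes), the median was 0.027 (all genes -0.052), and 0 members were called in either direction by limma, where 1.22% of all genes were (0.587% higher and 0.636% lower). At an unadjusted p under 0.05, 3 members were higher and 5 lower, where 5.03% and 7.05% of all genes were. The non-overlapping members numbered 5 higher and 10 lower, where 6.18% and 9.62% of all genes were so.

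Diet had its own pattern within each genotype. In αERKO liver the high-fat minus normal difference was above 0 for 77 of 89 members (86.5%, all genes 52.5%), with a median of 0.092 (all genes 0.017). No member was called there (0 by limma, background 0.334% higher and 0.147% lower, 0.481% in all), 10 were higher and 0 lower at an unadjusted p under 0.05 (background 5.64% and 4.67%), and 15 were higher and 0 lower without overlap between the groups (background 9.07% and 7.66%). In WT liver it was above 0 for 34 of 89 (38.2%, all genes 49.2%), with a median of -0.024 (all genes -0.0048). Again 0 members were called by limma (background 0.0163% higher and 0.0571% lower, 0.0734% in all), 1 was higher and 4 were lower at an unadjusted p under 0.05 (background 4.3% and 3.98%), and 3 were higher and 11 lower without overlap (background 7.03% and 7.31%). The interaction, the diet difference in αERKO minus that in WT, was above 0 for 74 of 89 members (83.1%, all genes 52.1%), with a median of 0.14 (all genes 0.017). Its test called 0 members and 0% of all genes, and at an unadjusted p under 0.05 8 members were higher and 0 lower, where 3.24% and 2.7% of all genes were. These comparisons share arrays, those of αERKO high-fat entering 3 of the 5, so their patterns are not separate lines of evidence.

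The shift was not equal over the arrays. The median deviation of the 89 members from each gene's own 12-array mean was 0.15 on αERKO high-fat replicate 1, 0.15 on replicate 2 and -0.030 on replicate 3. It was -0.10, 0.014 and -0.082 on the WT high-fat arrays, -0.0050, -0.041 and -0.018 on WT normal, and 0.026, 0.050 and -0.072 on αERKO normal. The first pair of αERKO high-fat arrays thus stood highest of the 12, and the remaining one lay among the arrays of the other groups. That array had the lowest level of its group for 71 of 89 members (79.8%), where 34.2% of all genes did so. Set singly against the WT high-fat mean, the members' median difference was 0.23, 0.21 and 0.022 for the 3 αERKO high-fat arrays, with 78, 79 and 52 of 89 members above 0.

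Other measures also varied over these arrays, and their part in this shift was not tested. The median signal over all probe sets was 75.6, 82.0 and 92.9 on the αERKO high-fat arrays and 93.5, 91.4 and 86.7 on the WT high-fat arrays, and αERKO high-fat replicate 1 had the lowest of the 12. The pancreatic acinar markers were at 5.76, 9.94 and 12.44 on the WT high-fat arrays and at 5.47 to 5.98 on the αERKO high-fat arrays, and the WT array with 5.76 had the lowest members' shift of the 12. Leaving out the 4 arrays that carry pancreatic transcripts keeps 1 WT high-fat array, replicate 1, so the members' median of 0.19 with 78 of 89 above 0 is then a comparison with that low array alone. Without the 3 arrays with the highest muscle markers (αERKO normal replicates 1 and 2 and αERKO high-fat replicate 2) the median was 0.13 with 71 above 0. When each array was set to the same median, the members' median genotype difference on normal diet was 0.18 while that of all genes was 0.11, and on high-fat diet the 2 values were 0.28 and 0.082. In addition, the 10 macrophage markers had mean log2 levels of 10.24 to 10.49 in αERKO high-fat and 10.55 to 10.96 in WT high-fat, and the 9 hepatocyte markers 15.13 to 15.45 and 15.30 to 15.51. The 6 adipocyte markers measured summed to signals of 927 to 1581 in αERKO high-fat and 288 to 656 in WT high-fat (1 of 3 tested called higher). Their mean log2 levels overlapped, at 6.32 to 6.51 and 5.78 to 6.44. The 4 red blood cell markers summed to 755 to 1218 and 344 to 408 (1 of 1 tested called higher). Their mean log2 levels also overlapped, at 6.36 to 6.97 and 6.16 to 6.55. In αERKO normal the adipocyte and red blood cell sums were 1061 to 1219 and 1144 to 1572, and the macrophage level was 10.13 to 10.66. The 4 cholangiocyte markers had mean log2 levels of 6.05 to 6.25 and 6.26 to 7.03, and the ranges of the endothelial, stellate and lymphocyte lists overlapped. The muscle markers were at 5.45, 8.59 and 5.65 on αERKO high-fat replicates 1, 2 and 3. The members' shift on these arrays was 0.15, 0.15 and -0.030.

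**Figure D1:**
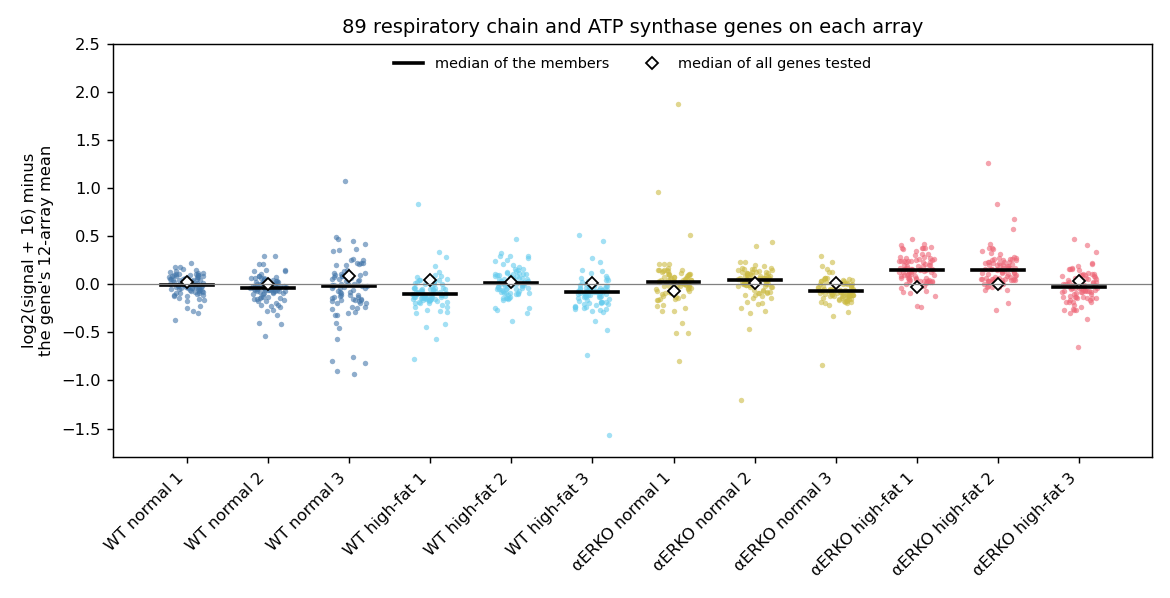
Each point is 1 of 89 member genes, plotted as log2(signal + 16) minus that gene's mean over the 12 arrays, for each array on the x axis. Bars mark the median of the members and diamonds the median of all genes tested. The members' medians of αERKO high-fat replicates 1 and 2 lie at 0.15, the highest of the 12 arrays, and that of replicate 3 at -0.030.

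Complex III held the called member. Uqcr11, a small accessory subunit of the cytochrome bc1 complex, had signals of 11044, 11087 and 11061 in WT high-fat and 17391, 16129 and 14299 in αERKO high-fat. On normal diet they were 13109, 12169 and 13410 in WT and 14093, 14861 and 13407 in αERKO. The high-fat groups did not overlap, with the 3 WT arrays within a narrow band and below all others, whereas on normal diet the lowest αERKO array lay just under the highest WT array. The group means were 12896 ± 647 (SD, n = 3), 11064 ± 22, 14120 ± 727 and 15940 ± 1555 for WT normal, WT high-fat, αERKO normal and αERKO high-fat. On high-fat diet the log2 difference was 0.52 ± 0.09 (95% interval 0.33 to 0.71, limma adjusted p = 0.0058), and on normal diet 0.13 ± 0.09 (adjusted p = 0.59). The high-fat minus normal difference was -0.22 ± 0.09 in WT (adjusted p = 0.50) and 0.17 ± 0.09 in αERKO (adjusted p = 0.54), and the interaction of 0.39 ± 0.12 did not pass the test (adjusted p = 0.73). A single probe set measured Uqcr11. Its call was lost without the 3 arrays with the highest muscle markers (adjusted p = 0.075), with acinar and muscle marker levels as covariates (0.070), with the arrays centred on their medians (0.11) and without the intensity trend of the variances (0.056). It was also lost without the 4 arrays that carry pancreatic transcripts (0.23), which leaves 1 WT high-fat array. Its log2 difference was 0.46 to 0.64 over all 26 alternative settings.

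Most of complex III shared that direction. The 8 members had a median difference of 0.18 between genotypes on high-fat diet, with 7 of 8 above 0, and of -0.052 on normal diet, with 2 of 8 above 0. In WT, 0 of 8 were above 0 on high-fat against normal diet (median -0.13), and in αERKO 8 of 8 were (median 0.099). Uqcr11, named because it was called, had the largest genotype difference of the 8 on high-fat diet. On high-fat diet the difference was 0.24 ± 0.11 for Uqcrc1, counted here as accessory, and 0.17 ± 0.10 for Uqcrfs1, the Rieske iron-sulfur protein that carries electrons towards cytochrome c, and neither was called. The single member below 0 was Uqcrb, at -0.08 ± 0.08, which was chosen after its value was seen, and a second probe set of that gene gave 0.22.

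Promoter sequences are shown for the 3 members with the smallest p-values for αERKO minus WT on high-fat diet, Uqcr11, Cox6b1 and Ndufb6. They were picked by p-value alone, and all 3 had their highest mean in αERKO high-fat. Each is the minus-strand stretch from 120 bases before to 30 after the RefSeq transcription start (GRCm38.p6), written 5′ to 3′, with matches to 4 fixed motifs in capitals. The positions are chr10:80406792-80406941 for Uqcr11, chr7:30626085-30626234 for Cox6b1 and chr4:40279392-40279541 for Ndufb6.
Uqcr11: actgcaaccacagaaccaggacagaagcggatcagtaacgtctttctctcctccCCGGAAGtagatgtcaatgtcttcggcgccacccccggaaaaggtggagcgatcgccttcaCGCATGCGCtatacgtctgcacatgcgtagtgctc
Cox6b1: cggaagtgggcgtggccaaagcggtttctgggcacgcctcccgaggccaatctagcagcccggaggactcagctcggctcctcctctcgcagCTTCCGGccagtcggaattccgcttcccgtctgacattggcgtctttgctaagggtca
Ndufb6: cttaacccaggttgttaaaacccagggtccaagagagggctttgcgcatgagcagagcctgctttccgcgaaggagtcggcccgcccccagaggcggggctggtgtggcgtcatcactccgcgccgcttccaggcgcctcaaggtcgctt
In Uqcr11 the capitals mark an ETS motif (CCGGAAG) whose first base is at -66 from the start and, on the opposite strand, an NRF1 core (GCGCATGCG) whose first base is at -5. In Cox6b1 they mark an ETS motif on the opposite strand at -28, and in Ndufb6 the single match, an ETS motif at -232, lies upstream of the stretch shown.

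RefSeq windows of 300 bases, from 250 before to 50 after the start, matched 78 of the 94 members, in 83 windows. The search covered both strands for the NRF1 core GCGCATGCG, the ETS motif CCGGAAG, the estrogen-related receptor motif TCAAGGTCA and the YY1 motif AAGATGGCG, and 0 of these 4 motifs is contained in another. The ETS motif was in 26.5% of the members' windows and 8.86% of all 32851 windows, the NRF1 core in 10.8% and 1.75%, the YY1 motif in 8.43% and 1.4%, and the estrogen-related receptor motif in 2.41% and 0.423%. At least 1 motif was found for 33 of 78 members (42.3%) and for 13.1% of all 27025 genes. By complex, the ETS motif was in 6 of 40 windows of complex I, 5 of 7 of complex II and 2 of 5 of complex III. It was in 3 of 13 windows of complex IV and 6 of 18 of ATP synthase. The smaller complexes thus rest on few windows. A match describes letters in the window and not a bound site. All windows served as background without the filter on low signals, so members were not compared with other genes expressed in liver.

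**Figure D2:**
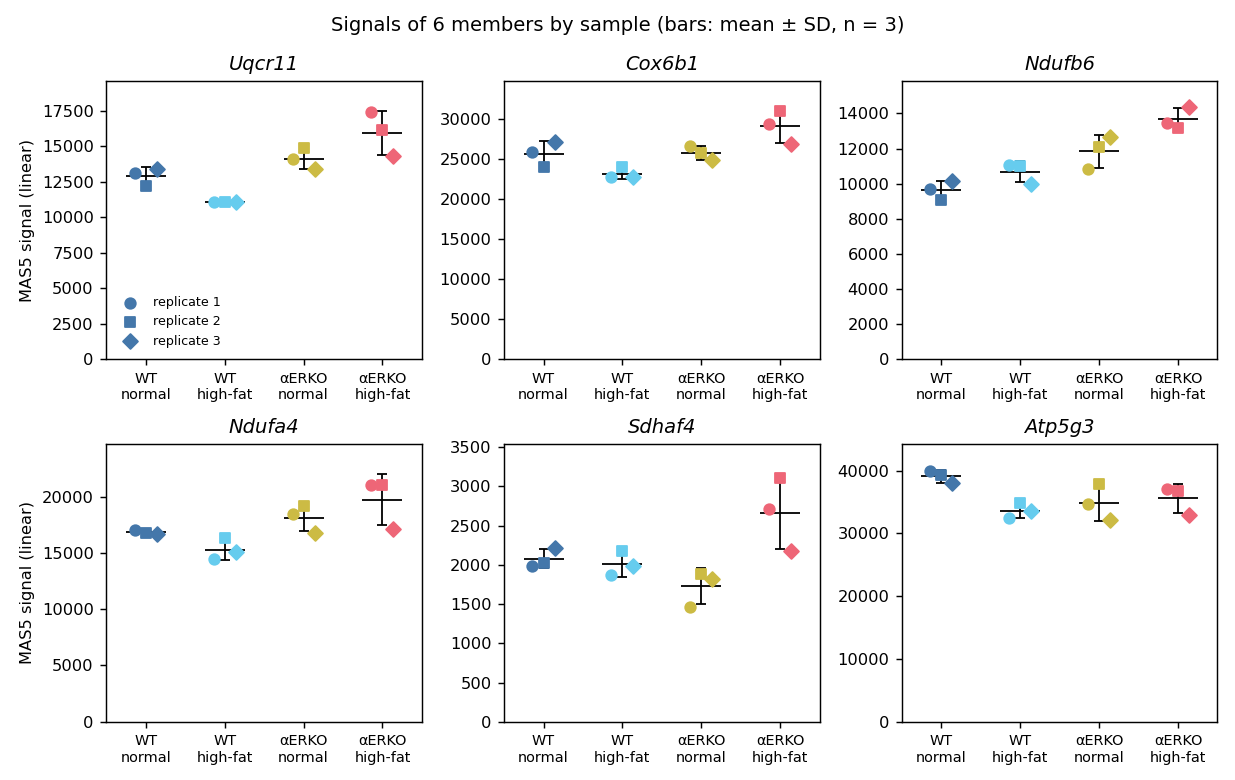
Signals (linear MAS5 intensity, y axes from 0) of 6 members in the 4 groups, 1 point per sample, with bars for the mean ± SD of 3 samples. The αERKO high-fat samples of Uqcr11 lie between 14299 and 17391 and the WT high-fat samples near 11064, and for Atp5g3 the WT normal samples lie above those of the other 3 groups.

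Complex IV had no called member, and several lay close to the threshold on high-fat diet. Of its 15 tested members, 13 were above 0 for αERKO minus WT on high-fat diet (median 0.21), 11 on normal diet (median 0.052) and 5 for diet in WT (median -0.089). Cox6b1, a peripheral subunit at the dimer interface, had 22808, 23992 and 22719 in WT high-fat and 29406, 30989 and 26844 in αERKO high-fat. Its normal-diet signals were 25864, 24037 and 27104 in WT and 26673, 25720 and 24895 in αERKO. The high-fat groups were apart and the normal-diet groups overlapped. The high-fat genotype difference was 0.33 ± 0.08, just outside the threshold (adjusted p = 0.051), and a second probe set of the gene gave 0.21.

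Ndufa4, now known as a complex IV subunit in spite of its name and chosen after its values were seen, had 14445, 16318 and 15122 in WT high-fat and 21013, 21069 and 17092 in αERKO high-fat. The groups did not overlap, and the difference was 0.36 ± 0.09 (adjusted p = 0.071). Cox8a, the common form of subunit 8, had 8053, 7921 and 7662 in WT high-fat and 11334, 11076 and 8309 in αERKO high-fat. All 3 αERKO values were higher, 1 of them by little, with a difference of 0.36 ± 0.11 (adjusted p = 0.11). Cox7a2 (0.30 ± 0.09, adjusted p = 0.12) and Cox4i1, the regulatory subunit 4 of most tissues (0.18 ± 0.08, adjusted p = 0.29), also missed the threshold. Cox5a, another nuclear-encoded subunit, had 0.14 ± 0.09. Cox6a1, the common form of subunit 6a, had a difference of 0.02 ± 0.08 between genotypes on high-fat diet, while its second probe set gave 0.34. Its WT signals were 53495, 51178 and 55245 on normal and 44104, 47224 and 45290 on high-fat diet, without overlap, and this diet difference of -0.23 ± 0.08 was not called (adjusted p = 0.46). Cox7c, whose probe set was dim at 181 to 374 on all arrays, had -0.43 ± 0.24 between genotypes on high-fat diet (adjusted p = 0.43).

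**Figure D3:**
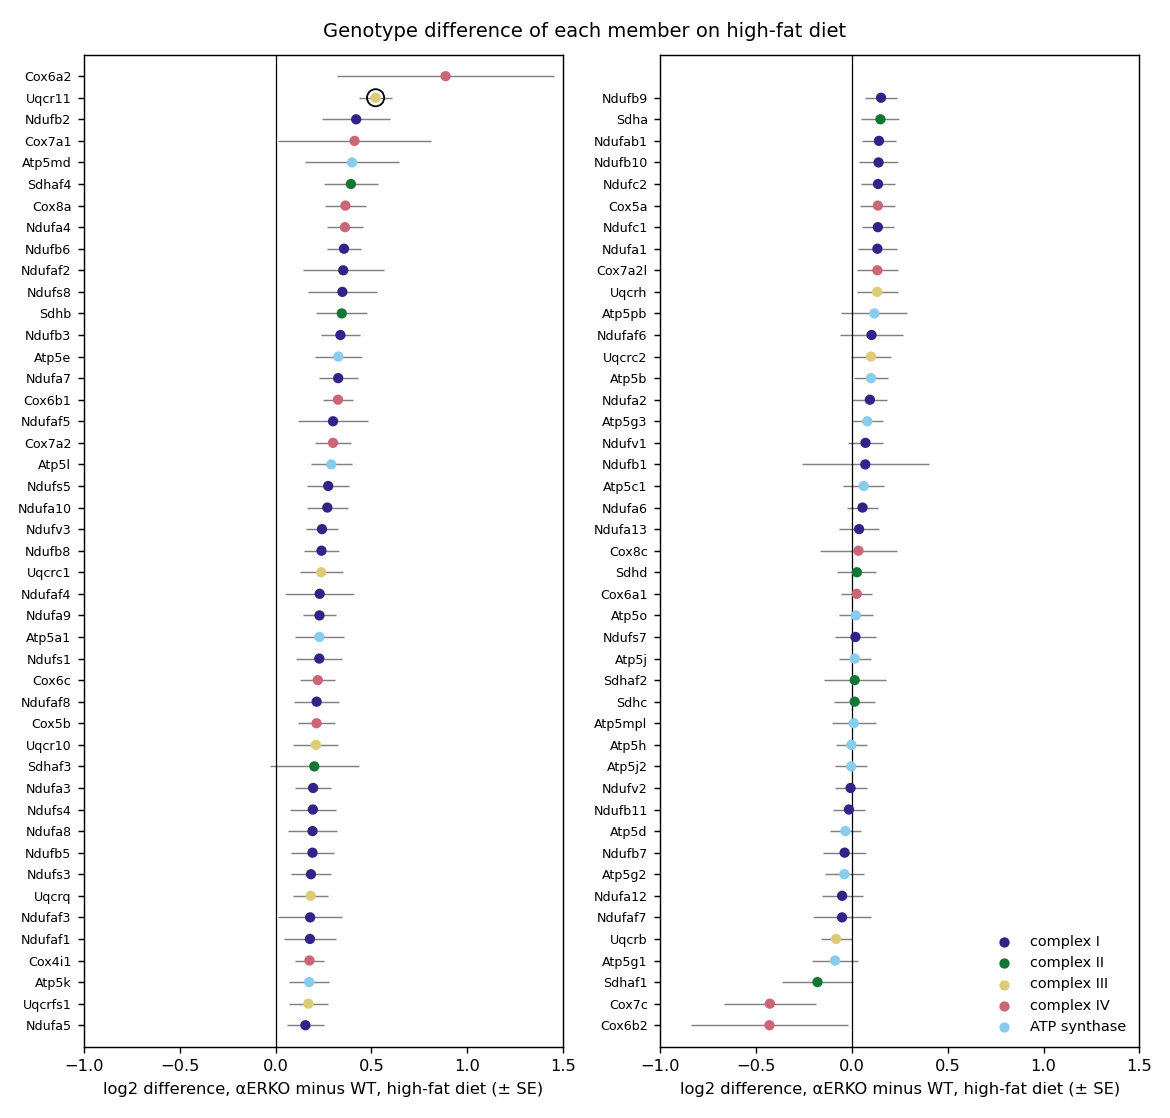
Log2 difference between αERKO and WT on high-fat diet (x axis, ± SE) for each of the 89 members tested, coloured by complex and ordered by size from the top left. The ringed point is Uqcr11 (0.52), the called member, and 14 members lie below 0.

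Several members of complex IV are tissue isoforms that are known from heart and skeletal muscle or testis, and the highest signals of 3 of them were on the arrays with the most muscle transcripts. Cox6a2, the muscle form of subunit 6a, had 694 on αERKO normal replicate 1 and 450 on αERKO high-fat replicate 2, against 49.5 to 219 on the other 10 arrays. Cox8b, the muscle form of subunit 8, had 361 and 203 on the same pair and 2.4 to 41.7 elsewhere. Cox7a1 had 289 and 264 there and 76.3 to 175 elsewhere. The muscle marker Acta1, skeletal alpha-actin, had 5794 and 2359 on this pair. The genotype differences of Cox6a2 had large errors, 0.68 ± 0.57 on normal and 0.89 ± 0.57 on high-fat diet (adjusted p = 0.67 and 0.50), and the first became -0.12 without the 4 arrays with pancreatic transcripts, which include αERKO normal replicate 1.

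The remaining isoforms were dim or level. Cox8c, the testis form of subunit 8, had 296 to 532 with no difference above 0.14 in size, although a dimmer second probe set gave -0.83 between genotypes on normal diet. Cox6b2, the testis form of subunit 6b, lay on normal diet at 72.7, 99.2 and 193 in WT and 75.3, 27.2 and 39.6 in αERKO, and its difference of -1.09 ± 0.41 was not called (adjusted p = 0.29). Cox4i2 and Cox7b2 stayed below the filter, at 23.6 to 134 and 1.9 to 8.4. Ndufa4l2, a relative of Ndufa4 known to be induced in low oxygen, had signals of 6.7, 60.7 and 12.9 on normal and 18.9, 10.1 and 11.6 on high-fat diet in WT, and of 87.1, 81.0 and 94.7 on normal and 40.8, 47.9 and 55.3 on high-fat diet in αERKO. The αERKO arrays lay above the WT arrays of the same diet on both diets, at signals near or under the array medians of 75.6 to 114. In a fit without the filter its differences of 1.49 ± 0.42 and 1.12 ± 0.42 were not called (adjusted p = 0.18 and 0.27).

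**Figure D4:**
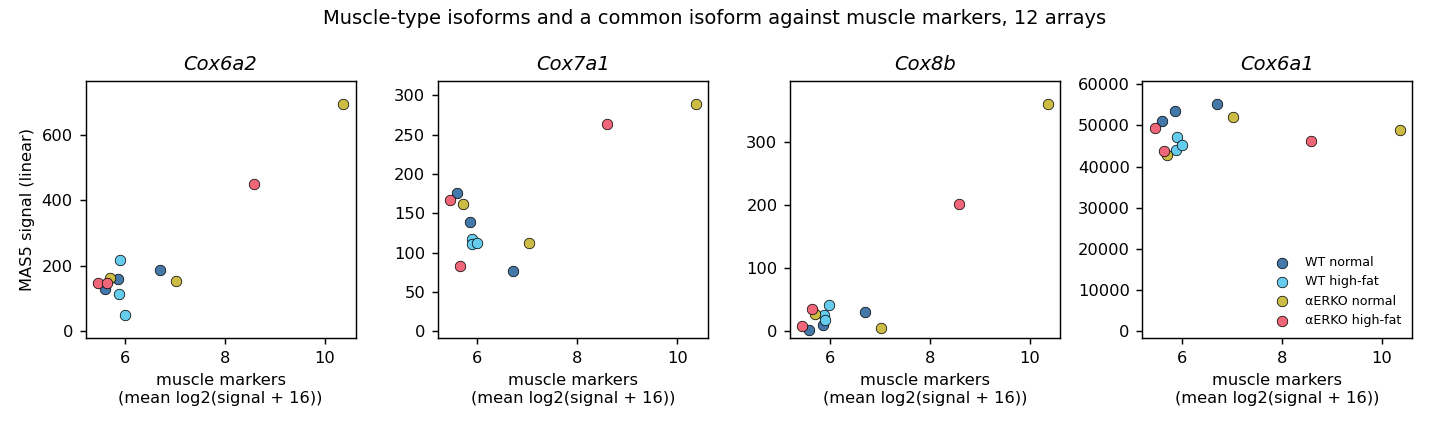
Signals of 3 muscle-type isoforms of complex IV and of the common form Cox6a1 (y axes, linear) against the mean log2 level of 16 skeletal muscle markers (x axes), 1 point per array, coloured by group. The 2 arrays with marker levels of 8.59 and 10.37 have the highest Cox6a2, Cox7a1 and Cox8b signals, whereas Cox6a1 lies between 42843 and 55245 on all arrays.

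In complex I, 36 of 41 tested members were above 0 for αERKO minus WT on high-fat diet (median 0.18) and 25 on normal diet (median 0.032). Ndufb6, an accessory subunit of the membrane arm, had 11055, 10989 and 9982 in WT high-fat and 13452, 13188 and 14364 in αERKO high-fat. On normal diet it had 9670, 9067 and 10154 in WT and 10827, 12060 and 12639 in αERKO. The groups were apart on both diets, with differences of 0.36 ± 0.09 on high-fat (adjusted p = 0.056) and 0.30 ± 0.09 on normal diet (adjusted p = 0.17), the smallest adjusted p of any member on normal diet. Its second probe set gave 0.32 on high-fat and -0.0031 on normal diet. Ndufb2 and Ndufb3, accessory subunits of the same arm chosen after their values were seen, had all 3 αERKO high-fat arrays above all 9 arrays of the other groups. So did Ndufa7 and Ndufb6, and also Ndufaf1 and Atp5e, which were likewise chosen after their values were seen. This makes 6 of 89 members (6.74%, all genes 2.46%).

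Core subunits of complex I had no call either. Ndufv1, the flavoprotein that binds NADH, had genotype differences of 0.11 ± 0.09 on normal and 0.07 ± 0.09 on high-fat diet, with -0.092 and -0.051 on a further probe set, and Ndufs1, the large iron-sulfur subunit, 0.04 ± 0.12 and 0.23 ± 0.12. For diet within αERKO, the smallest p-values in this complex belonged to the accessory subunits Ndufa2 (0.27 ± 0.09, adjusted p = 0.28) and Ndufa7 (0.28 ± 0.10, adjusted p = 0.33). Ndufa2 had 7633, 7780 and 8286 in αERKO normal and 9775, 10355 and 8572 in αERKO high-fat, which did not overlap. Ndufb1, measured by a dim probe set at 105 to 278, had -0.25 ± 0.33 for diet in WT and -0.17 ± 0.33 in αERKO. Ndufb4, the complex I member below the filter, lay at 34.8 to 101 on the single probe set left for it, since others that carry its symbol are shared with Ndufb4b and Ndufb4c and were not used.

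Complex II, which is also an enzyme of the citric acid cycle, had no called member among its 4 subunits and 4 assembly factors. On high-fat diet 7 of its 8 members were above 0 between genotypes (median 0.087). Sdha, the flavoprotein, had genotype differences of 0.23 ± 0.10 on normal (adjusted p = 0.38) and 0.15 ± 0.10 on high-fat diet. Sdhb, the iron-sulfur subunit, had 11532, 12928 and 12512 in WT high-fat and 17228, 16688 and 13306 in αERKO high-fat. The groups did not overlap, and the difference of 0.35 ± 0.13 was not called (adjusted p = 0.22). Sdhd, a membrane anchor, had -0.27 ± 0.10 on normal diet (adjusted p = 0.30), where its second probe set gave 0.060.

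Sdhaf4, which helps to join the flavoprotein to the iron-sulfur subunit, had 1462, 1889 and 1825 in αERKO normal and 2717, 3102 and 2179 in αERKO high-fat. In WT it had 1989, 2024 and 2216 on normal and 1865, 2182 and 1983 on high-fat diet. The αERKO diet groups did not overlap and the WT groups did. Its diet difference of 0.62 ± 0.14 in αERKO missed the threshold (adjusted p = 0.084), as did the interaction of 0.66 ± 0.20 (adjusted p = 0.69). Sdhaf3, an assembly factor of the iron-sulfur subunit, had 572, 600 and 366 in WT normal, and 668, 857 and 740 in WT high-fat. Its diet difference in WT was 0.57 ± 0.23 (adjusted p = 0.51), and the genotype difference on normal diet 0.52 ± 0.23 (adjusted p = 0.39). Sdhaf1, with the same kind of role, had -0.35 ± 0.18 on normal diet (adjusted p = 0.48). Its lowest signal, 380, was on αERKO normal replicate 1, the array with the most muscle transcripts, which also carried pancreatic transcripts. Over all complexes, the 12 tested assembly factors had a median genotype difference of 0.19 on high-fat diet, the 53 accessory subunits 0.17 and the 19 core subunits 0.080. These roles are spread unevenly over the complexes, and no complex IV member was counted as core. Within complex I alone the 27 accessory subunits had 0.16 and the 6 core subunits 0.13.

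ATP synthase was the complex with the smallest median differences. Between genotypes on high-fat diet it had a median of 0.062, with 12 of 17 above 0, and the medians of its other comparisons lay between -0.010 and 0.044. The catalytic beta subunit Atp5b had 0.13 ± 0.09 on normal and 0.10 ± 0.09 on high-fat diet, and the alpha subunit Atp5a1 0.05 ± 0.13 and 0.23 ± 0.13. Atp5g3, which encodes a copy of the c subunit of the rotor, had 39906, 39332 and 37990 in WT normal and 32467, 34783 and 33584 in WT high-fat. The WT diet groups did not overlap, and the difference of -0.22 ± 0.08 was not called (adjusted p = 0.46). In αERKO it had 34711, 37853 and 32115 on normal and 37032, 36783 and 32896 on high-fat diet, which overlapped. No test compared the complexes with one another.

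**Figure D5:**
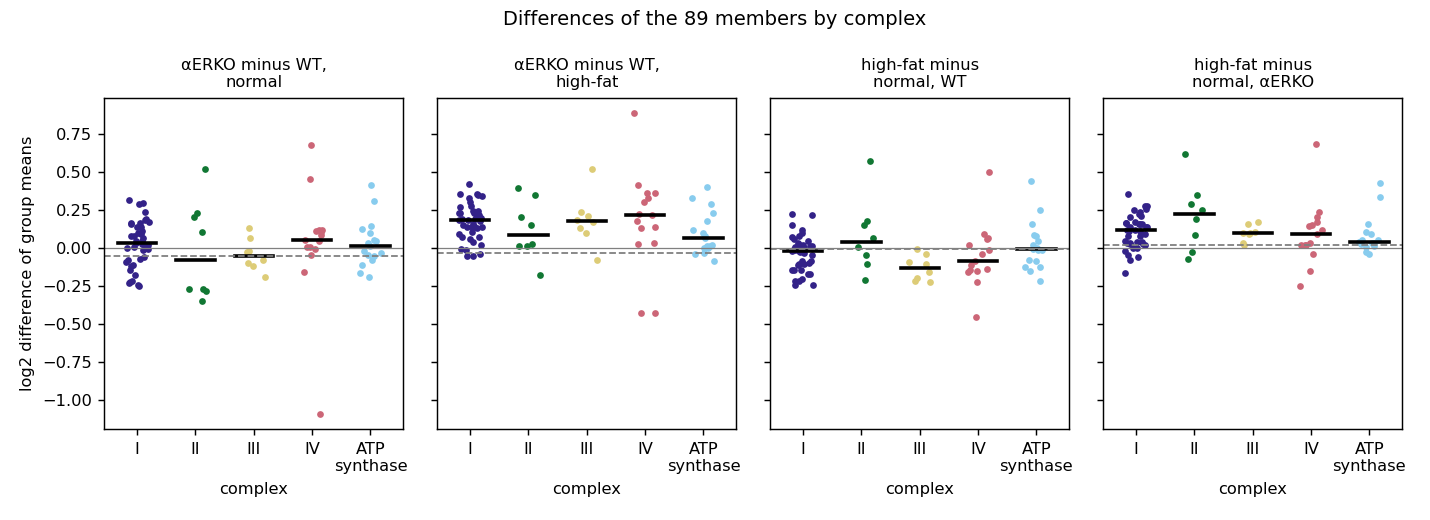
Log2 differences of the 89 members by complex (x axis) in 4 comparisons, 1 point per gene, with bars for the median of each complex and a dashed line for the median of all genes tested. For αERKO minus WT on high-fat diet the medians of complexes I, III and IV are 0.18, 0.18 and 0.21 and that of ATP synthase 0.062.

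Most differences were small. The size of the difference was under 0.25 for 75 of 89 members between genotypes on normal diet, 66 on high-fat diet, 85 for diet in WT and 78 in αERKO. The 95% interval lay within -1 and 1 for 85, 86, 86 and 86 members in the same order, and within -0.5 and 0.5 for 71, 63, 75 and 72. The median standard error of a member's difference was 0.11 for a comparison of 2 groups, and the interaction had 0.15. Further probe sets that passed the same filter on low signals were 79 in number, of 49 tested members. For the genotype difference on high-fat diet 58 had the sign of the one used, with a median of 0.14. On normal diet 42 did, with a median of 0.045. For diet 65 did in αERKO, with a median of 0.13, and 43 in WT. The WT median was 0.015, above 0, whereas that of the probe sets used was -0.024. For the interaction 52 did, with a median of 0.080.

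Of the neighbouring mitochondrial pathways, 2 genes were called, Cox19 on both diets and Coq7 on normal diet. The lists had 36, 12, 76, 16 and 27 tested genes, in the order of the next paragraph. Between genotypes 1.22% of all genes were called on normal and 1.98% on high-fat diet. Over all these lists together, the calls are near or under that background. In each of the lists that follow, 0 genes were called lower in any comparison and 0 higher except where named. Cox19, a copper-handling assembly factor of complex IV that the prefixes leave out, had 1499, 1696 and 1588 in WT and 2262, 2609 and 2587 in αERKO on normal diet. On high-fat diet it had 1368, 1571 and 1750 in WT and 2643, 2350 and 2156 in αERKO. It rose in αERKO on both diets without overlap, by 0.63 ± 0.12 (adjusted p = 0.021) and 0.61 ± 0.12 (adjusted p = 0.021). Coq7, a hydroxylase of coenzyme Q synthesis, had 1633, 1870 and 1701 in WT and 2466, 2492 and 2241 in αERKO on normal diet. It rose by 0.47 ± 0.10 on normal diet (adjusted p = 0.047), and its high-fat difference of 0.31 ± 0.10 was not called (adjusted p = 0.16).

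By list, the genotype difference on high-fat diet had a median of 0.12 over 36 further oxidative phosphorylation genes (1 called higher, 28 above 0), 0.16 over 12 genes of coenzyme Q synthesis (10 above 0), and 0.085 over 76 mitochondrial ribosomal proteins (53 above 0). It was -0.018 over 16 genes of the citric acid cycle and pyruvate dehydrogenase (7 above 0) and -0.098 over 27 genes of mitochondrial biogenesis and DNA maintenance (8 above 0). Ppargc1a had 757, 733 and 953 in WT high-fat and 370, 538 and 578 in αERKO high-fat. The groups did not overlap, and the difference of -0.71 ± 0.22 was not called (adjusted p = 0.13). On the same comparison, the transcription factors and receptors Tfam, Nrf1 and Esrra had -0.24 ± 0.14, -0.09 ± 0.18 and -0.21 ± 0.18, cytochrome c (Cycs) had 0.14 ± 0.08 and citrate synthase (Cs) -0.15 ± 0.16, and none of these 5 was called.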

How the data were processed

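Liver RNA was measured on 12 one-colour arrays. Per the submitters' processing notes, Affymetrix Expression Console and MAS5 were used, with versions and any genome build not given in the sources used here. Each array has 1 value per probe set, which the authors deposited as a MAS5 intensity on the linear scale, and on each array the mean without the lowest and highest 2% was 500. MAS5 values near background scatter widely on a log scale. The number of arrays limits the precision.

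Of 45101 probe sets, 34958 had 1 gene symbol, 932 several and 9211 none listed in the platform annotation, and probe sets with 1 symbol were used. The 10 probe sets that several genes share and that carry a symbol with these prefixes were left out, and 8 such symbols lay on no other probe set. Probe sets were not compared with each other in level. Genes entered the test if they lay above an array's median signal on 3 or more of 12 arrays. Values were log2(signal + 16), which understates differences of dim genes. One model with 4 group means, an intensity trend and 8 residual degrees of freedom was fitted with limma 3.58.1 in R 4.3.3. Two-sided p-values were adjusted by Benjamini-Hochberg over 12264 genes in each of 5 comparisons, with a threshold of 0.05. The fit was also run on simulated data with independent noise, drawn with its own variance estimates. These data held no offsets of whole arrays and no transcripts of other tissues, so the run cannot check the calls against either. Errors are SD of signals and SE of log2 differences.

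Named members were those called, and the 3 smallest p-values and the 2 largest differences in each direction per comparison. Tissue isoforms and their partners were also named, with 9 main subunits (Ndufv1, Ndufs1, Sdha, Sdhb, Uqcrc1, Uqcrfs1, Cox5a, Atp5a1 and Atp5b). Members outside these that were named for their values are said to be so. The members, the rule for naming and all lists were chosen with earlier results of these data known. No pair of arrays held identical values (0 pairs), and correlations were 0.945 to 0.976 within and 0.930 to 0.975 between groups. Replicate numbers did not pair the samples. Promoter sequences are from RefSeq (GRCm38.p6), and no coordinate of the arrays' probes was used. Alternatives covered the filter, pseudocount, scaling, choice of probe set, model and each array left out.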

Additional observations from a re-analysis of the deposited data

How the results depend on the processing

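The direction of the members' median genotype difference on high-fat diet held in all 26 alternatives (0.13 to 0.28, with 70 to 86 members above 0), whereas its size and the number of calls did not. Members called higher there numbered 1 in the settings reported, 3 with a stricter filter on mean signal, 4 with quantile normalization and 13 with array quality weights. There were 0 with median centring, without the intensity trend, without the 4 arrays with pancreatic transcripts (which leaves 1 WT high-fat array, assumed to vary like the other groups), without the 3 arrays with raised muscle markers, and with acinar and muscle marker levels as covariates. With each array left out in turn the count was 1 to 4, being 3 without WT normal replicate 3, 2 without αERKO normal replicate 1 and 4 without αERKO high-fat replicate 3. Uqcr11 was called in 21 of 26 alternatives, including all 12 with 1 array left out (adjusted p from 0.00062 to 0.23). For diet in αERKO, array quality weights called 1 member, Sdhaf4, and leaving out each array gave 0 to 1, the 1 being without αERKO high-fat replicate 3, when the median was 0.17. The other 3 comparisons had 0 calls in every alternative. The members' median genotype difference on normal diet was above 0 in 22 of 26 alternatives (-0.034 to 0.18, with 33 to 75 members above 0), and that for diet in WT below 0 in 25 of 26 (-0.070 to 0.035). The sign turned for 3 named genes. Cox6a2 had 0.46 with array weights, 0.43 without the 4 pancreatic arrays, 0.43 without αERKO normal replicate 1 and 0.25 with covariates for diet in αERKO, where leaving out single arrays gave -0.75 to 0.43, -0.12 without the pancreatic arrays and -0.14 with covariates for genotype on normal diet, and 0.016 without WT high-fat replicate 3 for diet in WT (single arrays left out, -0.91 to 0.016). Sdhaf1 had 0.019 on normal diet without the muscle arrays, which leaves 1 αERKO normal array, and Ndufb1 0.070 for diet in WT without WT high-fat replicate 1 (single arrays left out, -0.57 to 0.070). The cause of these changes was not tested. The replicate numbers did not pair the samples (median correlation of same-numbered deviations -0.029 over 18 pairs, range -0.30 to 0.21), and a fit with the replicate block called 1 member on high-fat diet and 0 elsewhere.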
